A study of Homo sapiens with 6 samples.

Results

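The laminin and nidogen genes LAMA1, LAMA2, LAMA3, LAMA4, LAMA5, LAMB1, LAMB2, LAMC1, NID1 and NID2 were examined in IMR-90 human fetal lung fibroblasts with and without knockdown of ZNF469. These 10 genes were taken by symbol from a list of laminin chains and nidogens, out of 23754 features in the deposited table, and all 10 were present. All cells were IMR-90 carrying a Tet-pLKO-puro vector that encodes 1 short hairpin against ZNF469, sh-2, under doxycycline control, and all were kept under puromycin. The DOX+ group (3 libraries) received 2 µg/mL doxycycline for 4 days, and the DOX- group (3 libraries) was the same line without doxycycline, although the submitted genotype label reads wild-type. Doxycycline and the hairpin came together in every DOX+ library, so their effects cannot be told apart here. The submitters describe the 3 libraries of a group as technical replicates, so the p-values measure the spread between these libraries, which may hold no difference between independent cultures.

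Laminins are cross-shaped trimers of 1 alpha, 1 beta and 1 gamma chain, assembled inside the cell through a coiled coil and secreted as the basic sheet-forming protein of basement membranes. The alpha chain carries the globular end that binds integrins and dystroglycan on the cell surface, the short arms of the chains polymerize with neighbouring trimers, and nidogens bridge the gamma-1 arm to type IV collagen. In lung, laminins underlie the epithelium, the capillaries and the smooth muscle, and fibroblasts contribute laminin and nidogen chains to these sheets.

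The libraries held 34057675 to 36120260 counts, of which the 10 genes took 0.244% to 0.251%. ZNF469, the targeted gene, averaged 119 ± 7.25 (SD of 3 libraries) in CPM, that is counts scaled by TMM to library size, without doxycycline. With doxycycline it averaged 80.1 ± 0.488, so transcript remained. DOX+ replicate 2 stood apart on the first principal component, and values without it are given beside the results that rest on it. All 9 fibroblast markers had a mean FPKM (fragments per kilobase of transcript, scaled to sequencing depth) over 1. Of these, 5 (COL1A1, COL1A2, COL3A1, DCN and LUM) were called lower in DOX+ cells by edgeR, against 1.12% of all features called in either direction. The call of LUM was at the edge of the 0.05 threshold (edgeR adjusted p = 0.0499). PDGFRA, PDGFRB, THY1 and VIM were not called. The summed FPKM of 6 endothelial markers was 3.80 to 4.71 in DOX- and 4.04 to 4.66 in DOX+ libraries, almost all of it TEK, with PECAM1 and CDH5 at 0. For 8 epithelial markers it was 4.29 to 4.99 and 4.36 to 5.87, mostly CLDN4, with 5 of the 8 at 0 in every library. Summed FPKM of 6 smooth muscle and pericyte markers ran from 561 to 568 in DOX- and from 580 to 626 in DOX+ libraries, nearly all of it ACTG2, CNN1 and MCAM. MYH11 (0.341 FPKM), DES (0.166 FPKM) and RGS5 (2.42 FPKM) were low in DOX- cells. The part of these 6 markers in the results was not tested. Immune markers summed to 29.4 to 32.4 and 29.6 to 32.3, nearly all of it CD68, and 4 myoblast and 5 mesothelial markers summed to under 1 FPKM in each library.

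At the level of transcript per length, the family was dominated by 1 gamma chain, 2 beta chains and both nidogens, while the alpha chains were scarce. In DOX- cells the gamma-1 chain LAMC1 had the highest level, 105 ± 0.263 FPKM (SD, n = 3), followed by NID2 at 89.1 ± 0.306 FPKM and LAMB2 at 82.4 ± 1.34 FPKM. NID1 (38.0 ± 0.233 FPKM) and LAMB1 (37.1 ± 1.06 FPKM) came next and overlapped between libraries, so their order in DOX- cells is not set. LAMA1 was the most abundant alpha chain at 7.34 ± 0.356 FPKM, ahead of LAMA4 at 3.03 ± 0.373 and LAMA2 at 1.98 ± 0.0342 FPKM, and these 3 did not overlap one another. LAMA5 stood at 0.685 ± 0.125 FPKM, below all of these. In DOX+ cells the same order held except that LAMB1 (41.8 ± 1.07 FPKM) was above NID1 (36.3 ± 0.477 FPKM), with no overlap between the libraries of the 2 genes.

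LAMA3, which encodes the alpha chain of the epithelial laminin of skin and airway, was barely detected. Its counts were 0, 3 and 4 in the DOX- libraries and 12, 0 and 9 in the DOX+ libraries, out of at least 34057675 counts in each. The groups overlapped and the gene did not pass the filter on low counts, so it entered no test and no fold is given. Of the chains outside the 10 genes, LAMB3 was detected at a low level, 0.887 FPKM in DOX- cells. LAMC3 had 3, 0 and 0 counts in DOX- and 0, 2 and 0 in DOX+ libraries, and LAMB4 had 5 to 10 counts in every library.

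**Figure D1:**
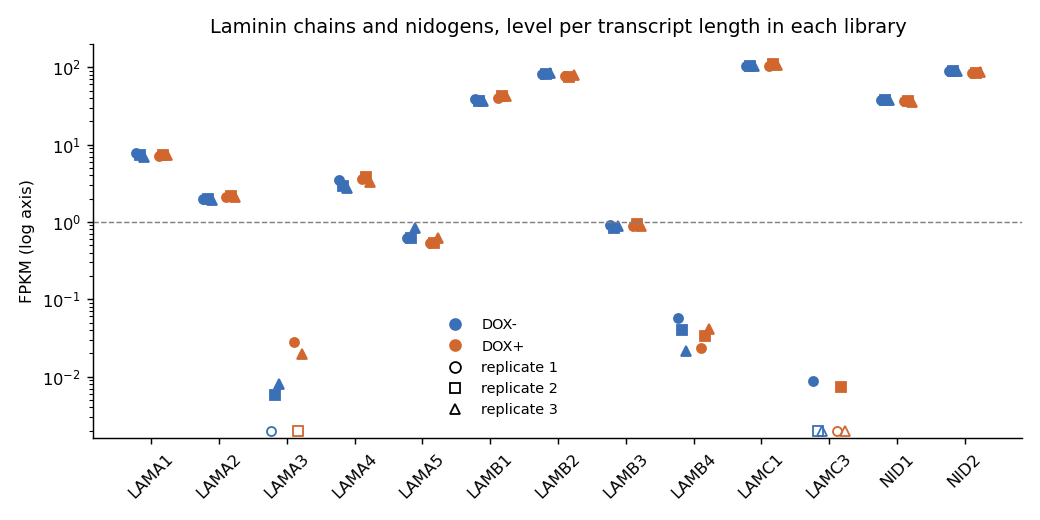
Level of the 10 genes and of LAMB3, LAMB4 and LAMC3 in FPKM on a log axis, with 1 point per library (blue DOX-, orange DOX+; circle, square and triangle for replicates 1, 2 and 3) and the dashed line at 1 FPKM. Open points at the bottom edge are libraries listed at 0; LAMC1, NID2 and LAMB2 are at the top and LAMA3 and LAMC3 at the bottom in both groups.

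The chains expressed allow a set of trimers that is the same in both groups. Laminins are named by their alpha, beta and gamma chain numbers, and 14 such trimers were considered. With a mean of at least 1 FPKM required of all 3 chains, 6 of the 14 were allowed in DOX- and in DOX+ cells, namely laminin 111, 121, 211, 221, 411 and 421. In each of the 6 the alpha chain was the least abundant, at 7.34 FPKM for the 2 LAMA1 trimers, 3.03 for the 2 LAMA4 trimers and 1.98 for the 2 LAMA2 trimers in DOX- cells. LAMA5 kept laminin 511 and 521 below that level (0.685 FPKM in DOX- and 0.562 FPKM in DOX+ cells), and a minimum of 0.5 FPKM added them for 8 in all. Laminin 311 and 321 lacked LAMA3, while laminin 213, 423 and 523 lacked LAMC3. A minimum of 5 FPKM left laminin 111 and 121 only. Transcript levels do not show which trimers were assembled or secreted.

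No member passed an FDR of 0.05 between DOX+ and DOX- cells in edgeR's quasi-likelihood test. Of the 10 genes, 9 passed the filter on low counts, and 0 of the 9 were called, against 1.12% of all 13991 features. At an unadjusted p under 0.05, 5 of the 9 were past the threshold, against 15.0% of all features. These were LAMB1 and LAMA4, higher in DOX+ cells, and LAMB2, NID1 and NID2, lower. For 7 of the 9 the CPM of the 2 groups did not overlap, which held for 20.3% of all features. The median absolute log2 fold change of the 9 was 0.115, and over all features tested it was 0.0847. The largest absolute value among the 9 was 0.217, so none approached the log2 change of 1 that the study requires. In this bulk RNA, fewer cells expressing a gene and less RNA per cell cannot be told apart.

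The calls depended on the method. With DESeq2, 4 of the 8 members given an adjusted p were called (LAMB1 higher; LAMB2, NID1 and NID2 lower), where 5.62% of features were called. With the trend of counts on GC content removed, edgeR called LAMB1 higher and NID2 lower, against 2.56% of features, and with the trend on transcript length removed it called NID2, against 1.18%. With the replicate number as a block, LAMB2 (edgeR adjusted p = 0.0418) and NID2 (edgeR adjusted p = 0.048) were called lower, against 2.09% of features. The labels and the data give no sign that the numbers pair the libraries. Limma-voom and the other scalings and filters called 0 members, and so did each of the 6 fits that left out 1 library, where the smallest edgeR adjusted p was 0.0895.

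**Figure D2:**
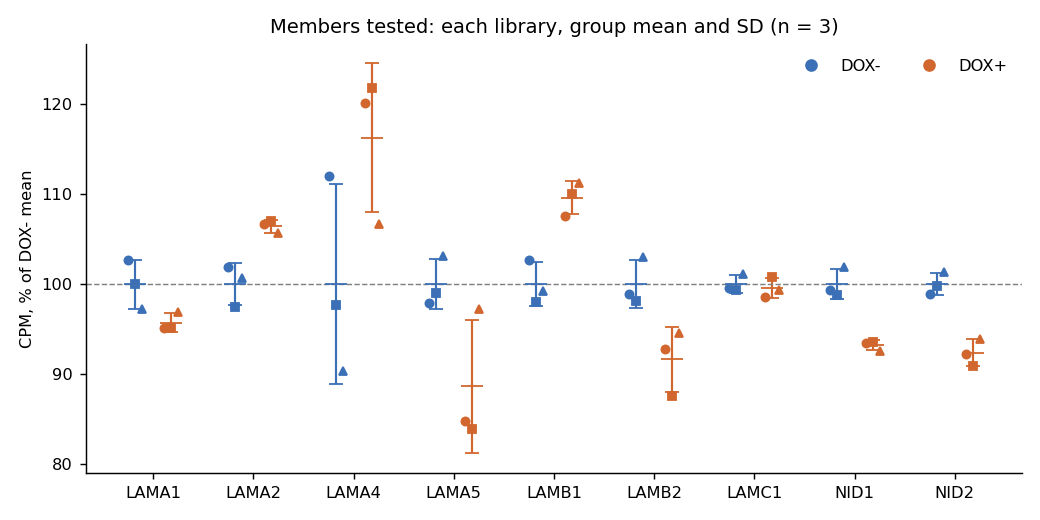
CPM of the 9 members tested, as a percentage of the DOX- mean, with 1 point per library (blue DOX-, orange DOX+; circle, square and triangle for replicates 1, 2 and 3) and bars for the mean and SD of 3 libraries. LAMB1 sits above and LAMB2, NID1 and NID2 below the DOX- libraries without overlap, LAMC1 lies close to the DOX- mean, the vertical axis does not start at 0, and LAMA4 spreads widest.

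Among the alpha chains, LAMA4 had the largest difference and LAMA1, the most abundant, one of the smallest. LAMA1 (ENSG00000101680, chromosome 18 of GRCh38, 6941742 to 7117797, minus strand) encodes the alpha chain of the laminin best known from the early embryo. It measured 79.7, 77.6 and 75.5 CPM in DOX- replicates 1, 2 and 3 and 73.8, 73.8 and 75.2 CPM in DOX+ replicates 1, 2 and 3. All DOX+ values lay just below the lowest DOX- value, and on the FPKM scale the groups overlapped. The resulting log2 fold change was -0.06 (SE 0.0411, 95% interval -0.15 to 0.03, edgeR adjusted p = 0.504), and it was -0.11 with the length trend removed.

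LAMA4 (ENSG00000112769, chromosome 6, 112107931 to 112254939, minus strand) encodes a shortened alpha chain that lacks the outermost part of the short arm and is typical of vessels and muscle. The DOX- libraries had 23.9, 20.9 and 19.3 CPM and the DOX+ libraries 25.7, 26.0 and 22.8 CPM. DOX+ replicate 3 fell within the DOX- range, so the groups overlapped. The log2 fold change was 0.22 (SE 0.0849, 95% interval 0.03 to 0.40, edgeR adjusted p = 0.247), with a range of 0.15 to 0.31 over 16 alternative fits, none of which called it, and 0.18 without DOX+ replicate 2.

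LAMA2 (ENSG00000196569, chromosome 6, 128883138 to 129516566, plus strand) encodes the alpha chain of the muscle basement membrane, whose loss causes a congenital muscular dystrophy. Its CPM were 21.5, 20.5 and 21.2 in DOX- and 22.5, 22.5 and 22.3 in DOX+ libraries. The DOX+ libraries were tightly grouped above all DOX- libraries, but the difference was small, a log2 fold change of 0.09 (SE 0.0621, 95% interval -0.04 to 0.22, edgeR adjusted p = 0.529). With the length trend removed it was 0.05.

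LAMA5 (ENSG00000130702, chromosome 20, 62307955 to 62367312, minus strand), the main alpha chain under adult epithelia and endothelia, was the scarcest member tested, with 234 to 283 counts per library. It had 7.71, 7.79 and 8.11 CPM in DOX- and 6.67, 6.60 and 7.65 CPM in DOX+ libraries. Each DOX+ value was below each DOX- value, by little in replicate 3. The log2 fold change was -0.17 (SE 0.112, 95% interval -0.42 to 0.07, edgeR adjusted p = 0.498), so at this depth the interval reached from a decrease by 25.1% to an increase by 4.88%. The value was -0.09 with the GC trend removed. The paper names LAMA5 among the matrix regulators with reduced expression after knockdown in its RNA-seq. Here each DOX+ library was lower in CPM, but edgeR did not call the gene. On the FPKM scale DOX- replicate 3 read 0.829 against 0.611 and 0.616 in the other DOX- libraries although its CPM was close to theirs, and the FPKM per count of this gene differed 1.3-fold among libraries. A stretch of 244 bp of its annotated exons also overlaps exons of ADRM1 on the opposite strand.

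The 2 major beta chains differed in opposite directions. LAMB1 encodes the beta chain made by most cell types, and LAMB2 the one concentrated at the neuromuscular junction and the kidney filter, where its loss causes Pierson syndrome. LAMB1 (ENSG00000091136, chromosome 7, 107923799 to 108003213, minus strand) measured 240.3, 229 and 232 CPM in DOX- and 252, 258 and 260.3 CPM in DOX+ libraries. All 3 DOX+ libraries exceeded all 3 DOX- libraries. The log2 fold change was 0.13 (SE 0.0352, 95% interval 0.06 to 0.21, edgeR adjusted p = 0.0996), that is 110% of the DOX- level. A stretch of 300 bp of the annotated LAMB1 exons overlaps exons of DLD on the opposite strand, with 0 bp shared between the canonical transcripts.

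LAMB2 (ENSG00000172037, chromosome 3, 49121114 to 49133118, minus strand) measured 511, 507 and 533 CPM in DOX- and 479.9, 453 and 489 CPM in DOX+ libraries. Here all DOX+ libraries were below all DOX- libraries, DOX+ replicate 2 the furthest. The log2 fold change was -0.13 (SE 0.0358, 95% interval -0.20 to -0.05, edgeR adjusted p = 0.123), that is 91.6% of the DOX- level, and it was -0.09 without DOX+ replicate 2. The canonical LAMB2 transcript has a GC content of 60.3% and that of LAMB1 49.4%, and with the GC trend removed LAMB2 was at -0.06 and LAMB1 at 0.14. The part of base composition in the LAMB2 value was not tested further. Among the canonical transcripts of the 10 genes and of the other laminin chains, 0 of 91 pairs shared a word of 31 bases.

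The sequences upstream of LAMB1 and LAMB2 are shown because these related genes, which supply alternative beta chains to the trimers, differed in opposite directions. Both are RefSeq sequences of GRCh38.p14 read 5′ to 3′ on the minus strand, at chr7:108003214-108003411 (198 bases) and chr3:49133119-49133300 (182 bases), ending where the first annotated exon begins. Capitals mark matches to the GC box, searched as GGGCGG and CCGCCC, and to the CCAAT box, searched as CCAAT and ATTGG. These motifs do not overlap each other in letters, but 2 matches of the same motif may.
LAMB1: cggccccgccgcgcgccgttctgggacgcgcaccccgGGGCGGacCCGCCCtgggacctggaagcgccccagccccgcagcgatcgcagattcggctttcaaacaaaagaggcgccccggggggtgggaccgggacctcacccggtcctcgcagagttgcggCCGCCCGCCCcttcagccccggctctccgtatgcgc
LAMB2: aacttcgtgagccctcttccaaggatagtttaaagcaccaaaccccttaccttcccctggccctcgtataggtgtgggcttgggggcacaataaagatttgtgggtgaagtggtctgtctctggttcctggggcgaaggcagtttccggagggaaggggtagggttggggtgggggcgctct

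The LAMB1 stretch held 4 GC box matches and 75.3% G and C, and the LAMB2 stretch 0 matches and 56.6%. Both printed stretches stop short of the RefSeq start, which for both genes lies inside the annotated gene. The bases left out between them are chr7:108003162-108003213 for LAMB1 and chr3:49133051-49133118 for LAMB2. The LAMB2 bases left out hold 1 GC box, so the 0 matches describe the printed stretch only. In the 250 bases upstream of the RefSeq start, 42.6% of 35116 promoters hold a GC box, 32.0% a CCAAT box and 10.7% a TATA box (TATAAA or TTTATA). Over that window LAMB1 had 4 GC boxes, LAMB2 1, LAMC1 3, NID1 1 with 1 CCAAT box, NID2 3 with 2 CCAAT boxes, LAMA5 5, LAMA3 1, and LAMA2 and LAMA4 0. The LAMA3 window (chr18:23872770-23873019) and the LAMA4 window (chr6:112254568-112254817) lie wholly inside the annotated genes. Annotation of LAMA3 begins far upstream of its window, at 23689453, so these windows need not cover every start of the 2 genes. Of the 10 members 9 matched the table by symbol (all but LAMA1), and none of the 9 had a TATA box there. The matches are a description of the letters and were not related to the fold changes.

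LAMC1, the gamma chain of nearly all laminins outside the epidermis, had the smallest difference of the 9 members tested. LAMC1 (ENSG00000135862, chromosome 1, 183023420 to 183145592, plus strand) had 913, 911 and 927 CPM in DOX- and 904, 924 and 911 CPM in DOX+ libraries. The groups overlapped. Its log2 fold change was -0.01 (SE 0.0253, edgeR adjusted p = 0.932), and the 95% interval limited a change to between -4.18% and 3.37%. With 30931 to 32981 counts per library it was also the most deeply counted of the 10 genes.

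Both nidogens were slightly lower in DOX+ cells. Nidogens are the linkers that join the laminin and type IV collagen networks, and the 2 genes can partly stand in for each other. NID1 (ENSG00000116962, chromosome 1, 235975830 to 236065109, minus strand) had 246, 245 and 252 CPM in DOX- and 231, 232 and 229 CPM in DOX+ libraries. The DOX+ values lay close together below every DOX- value, with a log2 fold change of -0.10 (SE 0.0336, 95% interval -0.17 to -0.03, edgeR adjusted p = 0.178). NID2 (ENSG00000087303, chromosome 14, 52004809 to 52069059, minus strand) had 462, 465 and 473 CPM in DOX- and 431, 424 and 438 CPM in DOX+ libraries. Its groups were separated as well, with a log2 fold change of -0.11 (SE 0.0303, 95% interval -0.18 to -0.05, edgeR adjusted p = 0.0949). NID2 was the member called by the most alternatives, and 1083 bp of its canonical exons overlap those of RTRAF on the opposite strand, so reads of these 2 genes may be mixed where the counting did not use strand.

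**Figure D3:**
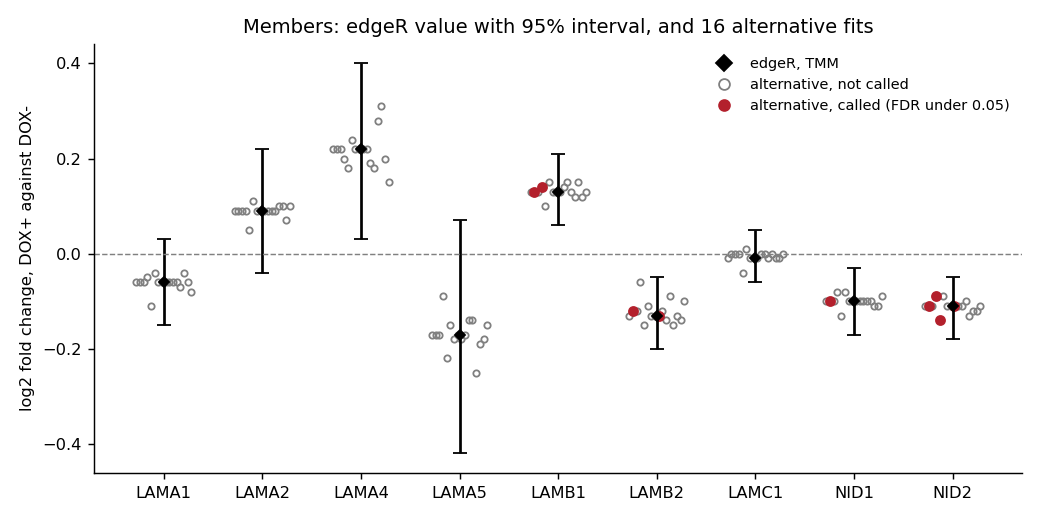
Log2 fold change of DOX+ against DOX- for the 9 members tested, with the edgeR value and its 95% interval (black) and 16 alternative fits (grey open circles not called, red circles called at an FDR under 0.05). The red points belong to LAMB1, LAMB2, NID1 and NID2, and LAMB1 stays above 0 and LAMB2, NID1 and NID2 below 0 in every fit shown.

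Shares within a library do not depend on how libraries are scaled, and they show how the make-up of the family differed between the groups. LAMB1 made up 31.9%, 31.1% and 30.3% of the LAMB1 and LAMB2 FPKM in DOX- libraries and 34.3%, 36.2% and 34.8% in DOX+ libraries. Every DOX+ library had a larger LAMB1 share than every DOX- library, a difference of 4.03 percentage points (exact permutation p = 0.1, 2-sided, and 0.25 after adjustment over 10 measures). A comparison of 3 libraries with 3 cannot give a p under 0.1. Without DOX+ replicate 2 the difference was 3.48 points. The log2 fold change of LAMB1 exceeded that of LAMB2 by 0.26, with a range of 0.21 to 0.29 over the 16 alternatives, the lowest with the GC trend removed.

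The nidogens were also lower relative to the gamma chain they bind. Per 100 FPKM of LAMC1 the sum of NID1 and NID2 was 121, 122 and 122 FPKM in DOX- and 115, 111 and 115 FPKM in DOX+ libraries, with no overlap (difference -8.23, exact permutation p = 0.1, adjusted 0.25), and -6.83 without DOX+ replicate 2. NID1 kept nearly the same share of the 2 nidogens, 29.9% ± 0.145 (SD, n = 3) in DOX- and 30.0% ± 0.508 (SD, n = 3) in DOX+ cells (exact permutation p = 0.7).

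Among the alpha chains LAMA1 supplied 55.9%, 57.0% and 55.9% of the summed FPKM in DOX- and 52.7%, 53.2% and 54.6% in DOX+ libraries, without overlap (exact permutation p = 0.1, adjusted 0.25). LAMA2 went from 15.2% ± 0.565 to 15.8% ± 0.115 (SD, n = 3), also without overlap (exact permutation p = 0.1), and the difference of 0.571 points was 0.245 without DOX- replicate 1. LAMA4 supplied 23.2% ± 1.67 and 26.4% ± 1.37 (SD, n = 3), with overlapping libraries (exact permutation p = 0.2), and LAMA5 and LAMA3 the rest. All alpha chains together amounted to 12.5 ± 0.590 FPKM per 100 FPKM of LAMC1 in DOX- and 12.7 ± 0.0753 in DOX+ cells (SD, n = 3; exact permutation p = 0.7). Both beta chains together came to 114 ± 1.21 and 112 ± 3.98 FPKM per 100 FPKM of LAMC1 (SD, n = 3; exact permutation p = 0.5), a difference of -2.54 that was -0.316 without DOX+ replicate 2, so beta and gamma transcripts were about equal and alpha transcripts scarce in both groups. The ratios to LAMC1 were chosen after the values had been seen.

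**Figure D4:**
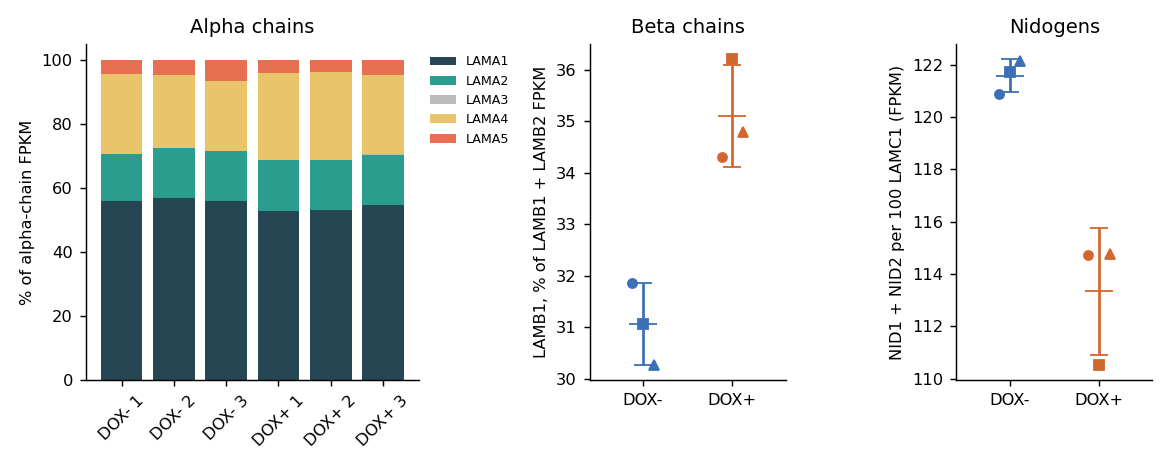
Make-up of the family in each library from FPKM: alpha chains as percentages of their sum (left, stacked bars from 0), LAMB1 as a percentage of LAMB1 and LAMB2 (middle), and the sum of NID1 and NID2 per 100 of LAMC1 (right). Points are libraries and bars the mean and SD of 3, the middle and right axes do not start at 0, and the DOX+ libraries lie above the DOX- libraries in the middle and below them on the right.

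Among the partners of laminin in the basement membrane, 4 genes fell and none of the other tested partners passed the test. Of 25 partner genes 15 were tested, and edgeR called 4 lower and 0 higher, where it called 1.12% of all features. An unadjusted p of 0.05 was passed by 5 of the 15, against 15.0% of all features. Besides the 4 called these included HMCN1, which was higher in DOX+ cells without overlap in CPM. Its log2 fold change was 0.26, and it was not called (edgeR adjusted p = 0.245). The median log2 fold change of the 15 was -0.07, against -0.00193 for all features. SPARC, a collagen-binding matricellular protein, fell by 0.60 on the log2 scale (SE 0.0210, edgeR adjusted p = 2.15e-09), from 4188 ± 95.2 to 2758 ± 34.3 CPM (SD, n = 3). COL15A1, a collagen of the basement membrane zone, fell by 0.47 (SE 0.0544, edgeR adjusted p = 0.000744), from 54.6 ± 3.09 to 39.5 ± 1.59 CPM (SD, n = 3). NTN4, whose product netrin-4 is related to laminins and binds the gamma-1 arm, fell by 0.23 (SE 0.0402, edgeR adjusted p = 0.012), from 118 ± 2.54 to 101 ± 2.38 CPM (SD, n = 3). COL4A1, a chain of the type IV collagen that nidogens bind, fell by 0.13 (SE 0.0215, edgeR adjusted p = 0.00643), while its partner chain COL4A2 was at -0.02 (edgeR adjusted p = 0.756). The proteoglycans HSPG2 (perlecan) and AGRN (agrin), which also bind laminin, were at -0.08 and -0.07 and were not called. The calls of NTN4 and COL4A1 did not hold in each fit that left out 1 library: COL4A1 was not called without DOX- replicate 1, NTN4 not without DOX- replicate 2 or 3, and neither without DOX+ replicate 1.

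Of the laminin receptors, 12 of 13 were tested and 1, ITGA2, was called by edgeR, against 1.12% of all features. At an unadjusted p under 0.05, 4 of the 12 passed, against 15.0% of all features. ITGA2, the integrin alpha-2 chain that binds collagen and laminin, fell by 0.33 (SE 0.0451, edgeR adjusted p = 0.00269), from 148 ± 0.487 to 118 ± 6.81 CPM (SD, n = 3). Chains of the more selective laminin receptors, ITGA3 (-0.02), ITGA6 (-0.03), ITGA7 (-0.04) and the dystroglycan gene DAG1 (-0.01), had log2 fold changes near 0 and were not called. The other genes past the unadjusted threshold were higher in DOX+ cells and not called: ITGA1, an integrin alpha chain for collagen and laminin, at 0.11 (edgeR adjusted p = 0.214), the proteoglycan SDC1 (syndecan-1) at 0.15 (edgeR adjusted p = 0.241) and ITGB1, the shared integrin beta-1 chain, at 0.09 (edgeR adjusted p = 0.181). ITGB1 was called higher with the replicate block, which called 2.09% of all features. The CPM of the groups did not overlap for ITGA1 and SDC1 and overlapped for ITGB1. ITGB4, the partner of ITGA6 in hemidesmosomes, had too few counts to be tested. The median over the 12 was -0.01.

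The enzymes that build the laminin-binding sugar chain of dystroglycan were present, and 0 of 17 tested were called by edgeR (1.12% of all features) or by DESeq2 (5.62% of the features it gave an adjusted p). The 17 had a median log2 fold change of 0.01, and 3 of them passed an unadjusted p of 0.05, a threshold passed by 15.0% of all features. The most abundant, DPM1 (35.2 FPKM in DOX- cells), which makes the mannose donor, had a log2 fold change of 0.07 (edgeR adjusted p = 0.713), and POMGNT1 (28.7 FPKM), an early enzyme of the chain, one close to 0 (edgeR adjusted p = 0.979). Of 8 proteases that process laminins or nidogens 7 were tested and 0 were called by edgeR, against 1.12% of all features, and 2 passed an unadjusted p of 0.05, against 15.0%. The most abundant of them, MMP14 and MMP2, were at -0.04 and -0.07. DESeq2, which called 5.62% of the features it gave an adjusted p, and edgeR with the GC trend removed, which called 2.56% of the features fitted, called FURIN higher, which was at 0.17 in edgeR without that removal (adjusted p = 0.116).

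**Figure D5:**
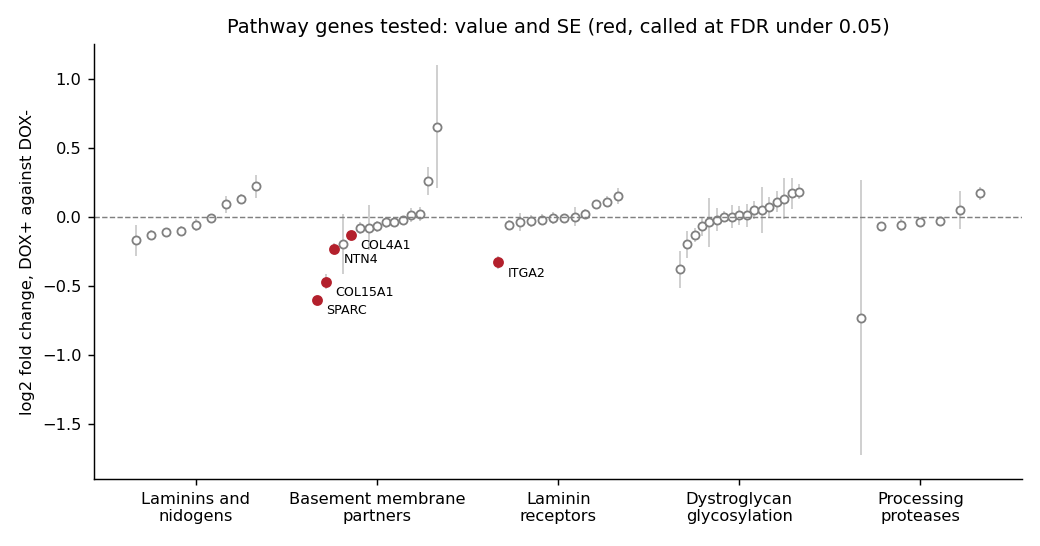
Log2 fold change with standard error of every gene tested in the laminin and nidogen family and in 4 lists of related genes, ordered by value within each list. Red points passed an FDR of 0.05 in edgeR: SPARC, COL15A1, NTN4 and COL4A1 among the basement membrane partners and ITGA2 among the receptors, all lower in DOX+ cells.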

How the data were processed

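RNA from 6 IMR-90 libraries, 3 DOX- and 3 DOX+, was poly(A)-selected and sequenced in pairs. Per the paper's methods and the submitters' processing notes, the authors filtered reads on quality and used HISAT2 and StringTie with GRCh38; versions, annotation release and strand setting are not given in the sources used here. The deposited counts are whole numbers per gene without normalization, and the deposited FPKM are the authors' values per transcript length, used for levels and shares only. The table also holds 17 lines that name no gene, which were left out and carry no counts. GENCODE 44 gave coordinates, canonical transcript length and GC content for 19883 features, and may differ from the release the authors used.

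Counts were tested with the quasi-likelihood method of edgeR 4.0.16 (R 4.3.3). Features passing filterByExpr (minimum count 10) were scaled by TMM, no covariate was used, p-values of the 13991 features were adjusted by the Benjamini-Hochberg method, and calls were made at an FDR of 0.05. SE was derived as the size of the log2 fold change over the square root of the F statistic. Libraries held 34057675 to 36120260 counts, sampling error matters for members with few counts, and intervals cover the spread between these libraries only. No library duplicated another (chi-square per degree of freedom of at least 4.54 within groups). Alternatives were other scalings and filters, DESeq2 1.42.0, limma-voom (limma 3.58.1), each library left out, a replicate block, and lowess trends (span 0.3) on length or GC. The trend fits covered 12771 features. The procedures were tested on simulated counts. The members and lists were chosen with earlier results of these data known. Named genes are the members, other laminin chains, ZNF469, and from each list the genes called or otherwise the 2 most abundant. Other genes named (COL4A2, HSPG2, AGRN, HMCN1, integrins, DAG1, FURIN, SDC1, ADRM1, DLD, RTRAF and the markers) were added after their values were seen. Results of some of these genes are not reported here.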

Additional observations from a re-analysis of the deposited data

How the results depend on the processing

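Over 16 alternative fits, 131 of 144 values of single members kept their direction and stayed past no threshold, 9 kept their direction and were called, and 4 changed sign. All 4 belong to LAMC1, at 0.01 with library size scaling, 0.00074 with the GC trend removed, and 0.0013 and 0.00045 without DOX- replicate 3 and without DOX+ replicate 1, with -0.01 to 0.0013 over the fits that left out 1 library. Members called higher numbered 0 in the edgeR fit, 1 with DESeq2, 1 with the GC trend removed and 2 at an unadjusted p under 0.05. Members called lower numbered 0, and 3 with DESeq2, 1 with the GC trend removed, 1 with the length trend removed, 2 with the replicate block and 3 at an unadjusted p under 0.05. Over all features the share called was 1.12% in the edgeR fit, 5.62% with DESeq2 and 2.56% with the GC trend removed. It was 1.18% with the length trend removed, 2.09% with the replicate block and 15.0% at an unadjusted p under 0.05. The cause of the differences between fits was not tested.

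Among the pathway lists, genes called higher numbered 0 in the edgeR fit and 1 each with DESeq2, the GC trend removed (FURIN in both) and the replicate block (ITGB1). Genes called lower numbered 5, and 3 to 5 with each library left out, the lowest without DOX+ replicate 1. Over all features edgeR called 1.12%, DESeq2 5.62%, the fit with the GC trend removed 2.56% and the replicate block 2.09%. The fits with 1 library left out called 74 to 161 features in all. Of 14 trimers, 6 were allowed at 1 FPKM and 2 at 5 FPKM in each group. With counts per kb in place of FPKM or with 1 library left out, the differences in the LAMA1, LAMA4 and LAMB1 shares and in nidogens per 100 FPKM of LAMC1 kept their direction and stayed within 1.5 times. The others did not stay within 1.5 times: the LAMA2 share was at 0.245 without DOX- replicate 1, the LAMA5 share at -0.451 without DOX- replicate 3 and -0.637 with counts per kb, the LAMA3 share at 0.0369 to 0.14, the NID1 share at -0.134 to 0.374, alpha chains per 100 of LAMC1 at -0.0673 to 0.511 and beta chains per 100 of LAMC1 at -4.16 to -0.316, the last without DOX+ replicate 2. LAMA3 was fitted only without a filter (edgeR adjusted p = 0.699).

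The data gave no sign that the replicate numbers pair the libraries: deviations from the group means of same-numbered libraries correlated at -0.0241, -0.0352 and 0.0363. With 3 libraries in each group these values cannot exclude a pairing. Calls over all features numbered 156, and 292 with the block, 290 without a filter, 327 with the GC trend removed, 527 with DESeq2 and 74 to 161 with 1 library left out. DOX+ replicate 2 had a score of 32.8 on the first principal component, against -12.6 to 0.524 for the others. Among the laminin chains reported here, depth limits LAMA3, LAMB4 and LAMC3 most, followed by LAMB3 and then LAMA5.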
